A study of Mus musculus with 12 samples.

Results

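Respiratory complex I is built from subunits encoded in the nucleus and in the mitochondrial genome, and the nuclear genes for its subunits and assembly factors were followed here in AML12 cells exposed to copper and bile acid. Genes were chosen by symbol alone: every gene named Nduf with a subunit or assembly factor number, together with Acad9, Ecsit, Timmdc1, Tmem126b, Nubpl and Foxred1. This gave 57 of the 24824 genes in the table, of which 37 encode subunits, 14 encode assembly factors and 6 carry an Nduf name without being established subunits. Of these, 51 passed the filter of a mean of at least 1 FPKM and were tested, namely all 37 subunits, 13 assembly factors and Ndufa4.

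AML12 is an immortalized hepatocyte line of the mouse, wild type by its label, and polyadenylated RNA was sequenced from 4 groups of 3 libraries. Group A was kept in standard growth medium. Cells of group B were given CuCl2 at 300 μM and the copper ionophore elesclomol at 40 nM (Cu/ES), those of group C the same Cu/ES plus taurocholic acid (TCA) at 1000 μM, and those of group D TCA at 1000 μM without Cu/ES. All groups were harvested at 24 h, and no label says whether the 3 libraries of a group came from separate cultures, so the p-values below measure the spread between libraries, which may be technical.

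Complex I takes electrons from NADH and hands them to ubiquinone while pumping protons across the inner mitochondrial membrane. Its N module binds NADH, its Q module reduces ubiquinone, and its P module forms the membrane arm that pumps, with a proximal part next to the Q module and a distal part at the tip. Core subunits carry the flavin, the iron-sulfur clusters and the quinone site, supernumerary subunits surround them, and assembly factors build the modules and then leave. Hepatocytes are rich in mitochondria and depend on this chain for ATP.

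Values are given as FPKM, which scales fragments to the length of a gene and the total of a library, and differences as log2 fold changes of FPKM + 1, which understate the change of genes at low levels. All comparisons were fitted with limma over 10615 genes, and "passed" means an adjusted p (Benjamini-Hochberg) under 0.05. In bulk RNA, fewer cells expressing a gene and less RNA per cell cannot be told apart. Recovered read totals ran from 29112342 to 39772346 per library. The keratins Krt8 and Krt18 of epithelial cells were abundant in every library, at 54.6 to 401 FPKM, but the hepatocyte genes Alb, Apob and Hnf4a stayed under 0.08 FPKM in all 12, so the label rests on few of its defining markers. Of 5 macrophage and leukocyte markers, Ptprc, Adgre1 and Lyz2 were at or near 0 throughout, and the summed list, nearly all Cd68, was 72.5 to 102 FPKM in A, 24.6 to 29.1 in B, 24.1 to 36.9 in C and 25.5 to 37.0 in D. The 7 hepatocyte markers in the table, nearly all Krt8 and Krt18, summed to 598 to 651 FPKM in A, 236 to 287 in B, 173 to 209 in C and 699.5 to 719 in D. The sum therefore follows these keratins. Cebpa had means of 1.61 FPKM in A, 0.633 in B and 0.716 in C, while Apoa1 went the other way, with 0.0086, 1.86 and 1.11. Of 4 endothelial markers only Pecam1 moved from near 0 to several FPKM with Cu/ES, and the summed list was 0.922 to 1.16 FPKM in group A, 6.80 to 10.5 in B, 16.8 to 19.8 in C and 0.865 to 1.25 in D. The sum of 6 stellate and fibroblast markers was 140.1 to 206 FPKM in group A, 3.44 to 5.76 in B, 1.27 to 2.45 in C and 121 to 183 in D, and the sum of 5 cholangiocyte markers was 920.2 to 1004, 1240 to 1404, 735 to 950.5 and 743 to 790.3 FPKM in the same order. Members of the cholangiocyte list moved in opposite directions. From A to B to C the mean of Krt19 went from 268 to 77.3 and 80.8 FPKM, and that of Sox9 from 10.6 to 50.9 and 52.4. Spp1, the largest part of the sum, went from 673 to 1190 and 682. The part of these shifts in the results below was not tested.

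In untreated cells the subunit mRNAs were spread over about an order of magnitude. Ndufa7, a Q module subunit, was the highest at 178 ± 9.96 FPKM (mean ± SD, n = 3), followed by Ndufb9 of the distal arm at 154 ± 12.4 and the acyl carrier partner Ndufa6 at 125 ± 10.7. At the other end lay Ndufs7 at 17.8 ± 0.760, Ndufb2 at 16.2 ± 2.46 and Ndufa11 at 12.3 ± 0.818. In the order of all 37, 27 of the 36 neighbouring pairs overlapped between libraries, so most of the middle of the order cannot be resolved. Assembly factors sat lower, from 1.51 FPKM for Ndufaf6 to 20.2 for Ndufaf8, with Ndufaf6 below the filter.

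Cu/ES spread the subunit mRNAs apart. The group mean in B was 55.4% of that in A for the median subunit, but single subunits ran from 6.37% for Ndufv3 to 131% for Ndufb2. Between subunits, the SD of log2(FPKM + 1) within a library was 0.82 to 0.87 in untreated cells and 1.17 to 1.19 in group B. The summed FPKM of the 37 subunits was 2097 to 2285 in A and 1220 to 1310 in B.

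Of the 37 subunits, 31 passed lower in group B than in A and 1 higher, against 72.0% and 20.1% of all genes tested, and 16 passed lower with a log2 fold change below -1, against 53.0%. The median subunit changed by -0.84, whereas the median of all genes tested was -1.10, so most subunits lay above the bulk of the transcriptome in this comparison. This shift of all genes depends on how libraries are scaled. The median of all genes was 0.01 with median-ratio scaling, -0.10 with quantile normalization and -1.56 as TPM. With median-ratio scaling 7 subunits passed lower and 21 higher, with quantile normalization 28 and 5, and as TPM 35 and 0. The shares of 72.0% and 20.1% are those of the FPKM fit and are no background for these counts. Among the 32 subunits that passed, 10 kept their direction under all 3 of these scalings: Ndufv1, Ndufv2, Ndufv3, Ndufs3, Ndufs7, Ndufa6, Ndufb3, Ndufb7 and Ndufab1 fell, Ndufa6 by 1.55 ± 0.12 as FPKM, and Ndufb2 rose. The size was not kept: Ndufa6 changed by -0.23 with median-ratio scaling and Ndufb2 by 0.02 as TPM.

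Ndufv3, a small N module subunit beside the NADH site, had 72.5, 79.1 and 83.9 FPKM in A against 4.35, 5.36 and 5.29 in B. The groups lay far apart, and the log2 fold change was -3.73 ± 0.14 (SE; limma, adjusted p = 4.6e-12), or 2.63 below the median of all genes. Ndufv2, a core subunit with an iron-sulfur cluster, had 56.9, 62.4 and 64.4 FPKM in A and 8.63, 8.63 and 7.80 in B, and fell by 2.73 ± 0.11 (limma, adjusted p = 7.18e-12). The flavin- and NADH-binding core subunit Ndufv1 fell from 45.3, 47.8 and 54.7 FPKM to 18.1, 16.6 and 18.7, a log2 fold change of -1.42 ± 0.08 that came down to -0.12 with median-ratio scaling. The N module therefore held both the most reduced subunit and several that moved with the bulk of genes, and its median was -1.16, close to that of all genes.

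Q module subunits differed as widely among themselves. Ndufs7, a core subunit at the quinone site, fell from 17.2, 17.6 and 18.6 FPKM in A to 2.39, 3.84 and 3.46 in B (-2.17 ± 0.11, limma, adjusted p = 1.50e-10), and the neighbouring core subunit Ndufs3 fell by 1.80 ± 0.09 (adjusted p = 1.56e-10). The iron-sulfur core subunit Ndufs8 moved less, by -0.46 ± 0.09, and turned positive with median-ratio scaling (0.84) and with quantile normalization (0.025). Likewise Ndufs1, the largest iron-sulfur subunit of the N module, changed by -1.03 ± 0.07 and by 0.24 with median-ratio scaling.

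In the membrane arm, Ndufb3 and Ndufb7 of the distal part stood out, at 16.9% and 21.3% of the group A mean. Ndufb7, a cysteine-rich subunit on the intermembrane side, fell from 57.9, 59.3 and 61.0 FPKM to 14.7, 10.96 and 12.2 (-2.16 ± 0.12, limma, adjusted p = 3.98e-10), and Ndufb3 fell by 2.41 ± 0.13 (adjusted p = 1.56e-10). The median was -0.40 over the 11 distal genes, against -0.71 for the 9 proximal ones and -0.71 for the 8 of the Q module. With median-ratio scaling the medians of the N, Q and P modules all turned positive, at 0.13, 0.61 and 0.69. Ndufb2 was the only subunit to pass higher, with 14.5, 19.01 and 15.1 FPKM in A and 23.0, 18.5 and 22.1 in B (0.37 ± 0.15, limma, adjusted p = 0.0306), and its groups overlapped. Ndufa1, Ndufa5, Ndufa10, Ndufb1 and Ndufb6 did not pass. Ndufab1, the mitochondrial acyl carrier protein that also serves lipoic acid synthesis, fell from 20.1, 20.6 and 22.7 FPKM to 5.97, 5.52 and 5.52 (-1.73 ± 0.11, adjusted p = 1.76e-09).

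**Figure D1:**
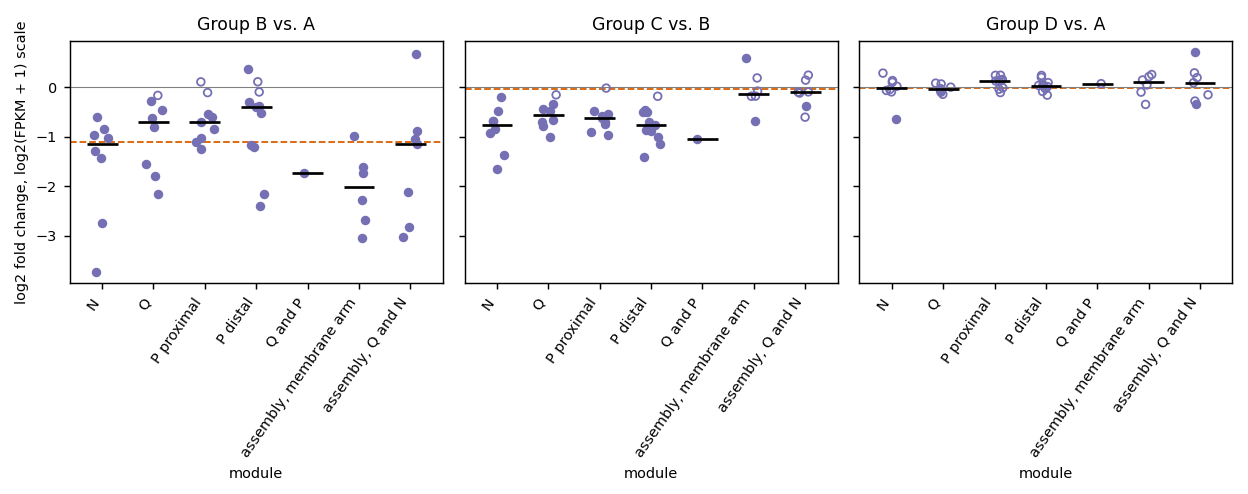
Log2 fold change on the log2(FPKM + 1) scale of each tested subunit and assembly factor, by module, for Cu/ES against untreated (B vs. A), TCA added to Cu/ES (C vs. B) and TCA alone (D vs. A). Each point is a gene, filled where it passed (limma, adjusted p under 0.05), black bars are module medians and the dashed line is the median of all 10615 genes tested: -1.10, -0.03 and -0.01. In C vs. B 36 of 37 subunits lie below the dashed line, all but Ndufa1, with subunit module medians from -1.04 to -0.56, while the median of all 13 assembly factors is -0.10, with Acad9 at -0.69 and Foxred1 at 0.59. The FPKM + 1 scale understates changes at low levels, where most assembly factors lay in B and C.

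Assembly factors had a lower median than subunits with Cu/ES, an order that was kept as TPM and with median-ratio scaling but turned round with quantile normalization (-0.38 for assembly factors and -0.56 for subunits). The median assembly factor in B was at 15.0% of its group A mean. Of the 13 tested, 12 passed lower and 1 higher, against 72.0% and 20.1% of all genes tested. Their median log2 fold change was -1.73, against -1.10 for all genes. Of the 13, 9 kept their direction with quantile and median-ratio scaling and as TPM. Of the MCIA complex, which builds part of the membrane arm, the 4 members followed here were all reduced: the change was -3.04 ± 0.20 for Tmem126b, -2.68 ± 0.12 for Ndufaf1, -1.73 ± 0.09 for Acad9 and -1.61 ± 0.11 for Ecsit, and the membrane-arm factor Timmdc1 fell by 2.29 ± 0.10. Tmem126b had 12.8, 13.7 and 14.2 FPKM in A and 0.368, 0.838 and 1.21 in B, from 10 to 32 reads per B library.

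Among factors of the Q and N modules, Ndufaf7, a methyltransferase of the mitochondrial matrix, fell from 11.1, 12.7 and 13.4 FPKM to 0.514, 0.549 and 0.864 (-3.03 ± 0.10, limma, adjusted p = 1.24e-12). Ndufaf3, a Q module factor, fell from 6.46, 8.02 and 7.69 FPKM to 0.197, 0.130 and 0.203 (-2.83 ± 0.10, adjusted p = 2.84e-12), or 6 to 9 reads per B library. Nubpl, which delivers iron-sulfur clusters to complex I, fell by 2.11 ± 0.10. The other factors changed by smaller amounts whose direction depends on the scaling. Ndufaf5, which hydroxylates Ndufs7, had a change of -1.15 ± 0.14, turning to 0.22 with quantile normalization, and Ndufaf4, the partner of Ndufaf3, had one of -1.05 ± 0.13, turning to 0.26. Ndufaf8, the partner of Ndufaf5, changed by -0.87 ± 0.25, or 0.38 and 0.060 with median-ratio and quantile scaling. Foxred1, a flavoprotein of late assembly that was grouped here with the membrane-arm factors, changed by -0.98 ± 0.08, or 0.13 and 0.40.

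Ndufaf2 was the only assembly factor that rose with Cu/ES. It is a paralogue of Ndufa12 that holds its place in the unfinished enzyme until late assembly. Its values were 7.34, 6.59 and 6.22 FPKM in group A, 12.2, 11.5 and 10.3 in B, 12.1, 16.3 and 12.7 in C and 8.40, 9.70 and 7.33 in D. All B and C libraries lay above all A and D libraries, and the change from A to B was 0.68 ± 0.12 (limma, adjusted p = 7.60e-05), in the same direction under each scaling. Ndufa12 itself was at 50.2% of group A in B (log2 fold change -0.96 ± 0.21, or 0.34 with median-ratio scaling). Ndufa4, first described in complex I and now assigned to complex IV, rose as well, from 151, 177 and 164 FPKM to 398, 372 and 385 (1.23 ± 0.10, adjusted p = 2.00e-08).

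**Figure D2:**
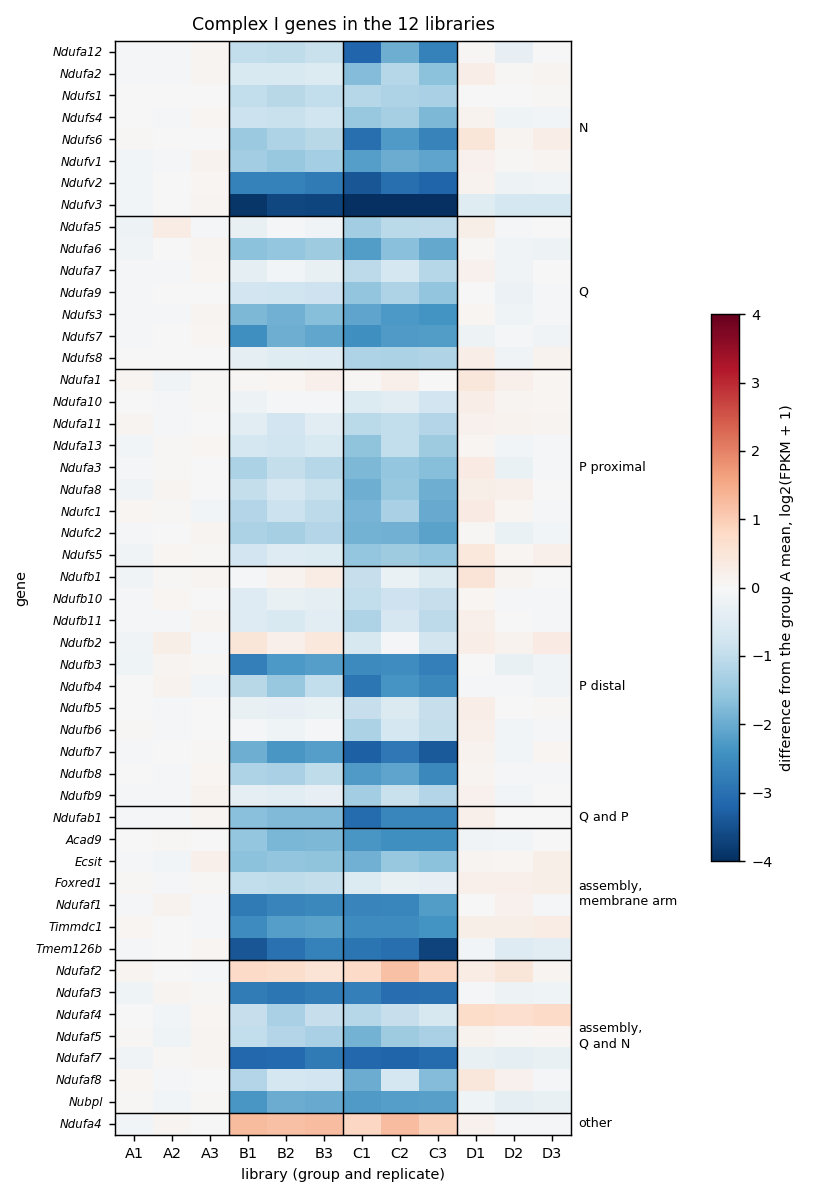
Difference of each library from the group A mean on the log2(FPKM + 1) scale, for 50 of the 51 tested genes ordered by module, with 3 libraries per group. Colors are cut off at -4 and 4. Ndufv3, Tmem126b, Ndufaf3 and Ndufaf7 are dark in both B and C, whereas Ndufa12, Ndufs6 and Ndufb4 darken from B to C and Ndufaf2 and Ndufa4 are red in both.

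Adding TCA to Cu/ES lowered nearly all subunits. All 37 had a lower mean log2 value in group C than in B, as 54.1% of all genes did, and 36 of them also had under TPM, median-ratio and quantile scaling, where Ndufa1 turned to 0.058, 0.044 and 0.0098. In this comparison 34 passed lower and 0 passed higher with limma, against 23.6% lower and 20.4% higher among all genes tested, and limma-voom on recovered reads gave the counts 34 and 0. No subunit was higher at an unadjusted p under 0.05 either. The median subunit changed by -0.69 while the median of all genes was -0.03. The groups did not overlap for 34 subunits, against 27.2% of genes. A log2 fold change below -1 was passed by 7 subunits, against 1.16%. All 34 calls kept their direction under TPM, median-ratio and quantile scaling, which moved the median of all genes by less than 0.1 here.

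Every module took part. The medians were -0.77 in the N module (8 of 8 passed lower), -0.56 in the Q module (7 of 8), -0.63 in the proximal arm (8 of 9) and -0.76 in the distal arm (10 of 11). The 7 core subunits had a median of -0.47 and the 30 supernumerary subunits one of -0.72. Ndufs7, Ndufb3 and Ndufa1 did not pass. The first 2 of these were at 18.2% and 16.9% of group A in B, and the interval of their change from B to C was -0.40 to 0.09 and -0.45 to 0.09 (95%). Ndufv3 and Ndufv2, lower still in B at 6.37% and 13.6% of group A, did pass.

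The largest fall was that of Ndufa12, which sits between the N and Q modules. Its values were 41.1, 42.6 and 47.7 FPKM in A, 21.7, 21.2 and 23.0 in B, 3.99, 10.6 and 5.85 in C, and 45.4, 34.4 and 43.8 in D. Every C library lay below every B library, and the second C library was the highest of its group. The change from B to C was -1.65 ± 0.21 (limma, adjusted p = 4.80e-05).

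Ndufb4, a distal membrane subunit, had 46.3, 51.2 and 42.7 FPKM in A, 21.2, 15.7 and 23.0 in B, 5.44, 8.28 and 6.99 in C, and 44.7, 44.8 and 42.4 in D, a change from B to C of -1.41 ± 0.14 (limma, adjusted p = 5.39e-06). Ndufs6, the zinc-binding subunit that is added late in the N module, had 47.3, 45.2 and 45.2 FPKM in A, 15.8, 18.9 and 20.6 in B, 4.82, 8.66 and 6.36 in C, and 63.9, 49.95 and 55.7 in D, a change of -1.37 ± 0.15 (adjusted p = 1.20e-05). As FPKM both genes stepped down from A to B and from B to C without overlap, although with median-ratio scaling their first step was 0.10 and 0.016, and the mean of D was 94.0% of that of A for Ndufb4 and 123% for Ndufs6.

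Ndufb8, a distal subunit whose protein is lost when the enzyme fails to assemble, had 10.7, 10.2 and 12.6 FPKM in B and 4.62, 5.29 and 3.52 in C (-1.16 ± 0.11, limma, adjusted p = 4.91e-06). Ndufab1 fell from 5.97, 5.52 and 5.52 to 1.63, 2.59 and 2.64 FPKM (-1.04 ± 0.11, adjusted p = 1.19e-05) and reached 10.8% of group A. Ndufb7 fell from 14.7, 10.96 and 12.2 to 5.22, 7.25 and 4.88 FPKM (-1.01 ± 0.12, adjusted p = 2.86e-05). For these 3 genes too, the lowest B library was above the highest C library. Ndufa5, a Q module subunit, differed in course: it was at 24.7, 34.8 and 26.6 FPKM in A and 23.0, 27.4 and 25.4 in B, and as FPKM fell only in C, to 10.3, 12.8 and 13.3 (-1.01 ± 0.13, adjusted p = 3.33e-05).

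Of the other core subunits, Ndufs8 changed from B to C by -0.77 ± 0.09, Ndufv1 by -0.69 ± 0.08, Ndufv2 by -0.49 ± 0.11, Ndufs3 by -0.47 ± 0.09 and Ndufs1 by -0.19 ± 0.07 (limma, adjusted p from 1.27e-05 to 0.0297). Ndufv3 fell further, from 4.35, 5.36 and 5.29 to 1.61, 3.23 and 2.35 FPKM (-0.84 ± 0.14, adjusted p = 0.000296), and ended at 3.05% of group A. Ndufa1, an essential small subunit of the membrane arm, did not pass in any of the comparisons as FPKM. It had 41.5, 34.7 and 39.5 FPKM in A, 40.2, 40.7 and 44.1 in B, 40.1, 44.2 and 39.2 in C and 53.0, 44.2 and 40.7 in D, with overlapping groups throughout, and the interval of its change from B to C was -0.22 to 0.19 (95%). Its place against group A depends on the scaling: the change from A to B was 0.11 as FPKM, -0.26 as TPM, 1.42 with median-ratio scaling and 0.47 with quantile normalization, and the last 3 passed (limma, adjusted p = 0.0141, 1.26e-08 and 0.000874).

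The size of these falls rested in part on 1 library. The second C library was the highest of its group for 30 of 37 subunits, and its median subunit lay 0.46 below the group B mean (a log2 difference of -0.46) against -0.79 and -0.78 in the other C libraries. Without it the median subunit change was -0.80, 34 subunits again passed lower and 12 had a log2 fold change below -1. Without the first C library that last count was 4, and without the third it was 6.

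**Figure D3:**
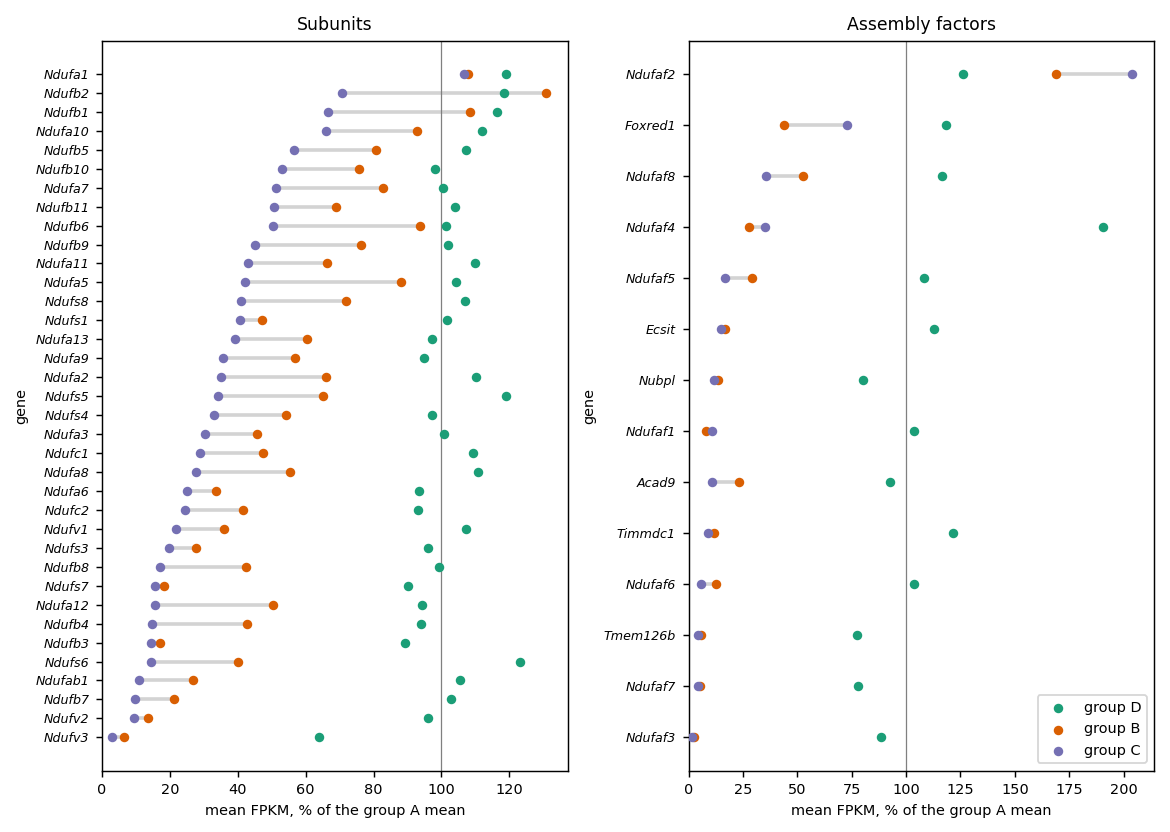
Group means of FPKM as a percentage of the group A mean for 36 of the 37 subunits and for 14 assembly factors, sorted by group C. Orange points are group B, purple points group C and green points group D, and a grey line joins B and C. C lies to the left of B for each subunit drawn, with Ndufa1 almost level (108% and 107%), the median of all 37 is at 55.4% in B, 34.1% in C and 102% in D, and the median assembly factor at 15.0%, 11.1% and 106%.

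With both agents, 14 of 37 subunits had a mean under 25% of group A and 3 under 10%, namely Ndufv3, Ndufv2 and Ndufb7, whereas with Cu/ES alone 5 were under 25% and 1 under 10%. The share of all genes under these cuts was not counted. The median gene lay at -1.10 in B and -1.14 in C from the group A mean (log2 of FPKM + 1, mean over libraries). Such distances depend on the scaling: in C vs. D the median subunit was at -1.64 as FPKM and -0.28 with median-ratio scaling. The summed FPKM of the subunits was 715 to 914 in group C against 1220 to 1310 in B. The rank of single subunits moved accordingly. Ndufv3 went from rank 9 of 37 in A to 36 in B and C, and Ndufa1 from 27 in A to 10 in B and 6 in C, while Ndufa7 and Ndufb9 held ranks 1 and 2 in every group.

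Subunit mRNAs are short, from 339 to 3658 nt by the length recovered from the FPKM steps, with a median of 845 nt, and short genes as a class were lower in group C than in B. In the shortest 10% of all genes tested, of 76 to 1231 nt, the median change from B to C was -0.18, against 0.04 in the longest 10%. The 25 subunits within the shortest 10% had a median of -0.74, and 23 of them lay below the median of those genes. The contribution of length to their change was not tested further.

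**Figure D4:**
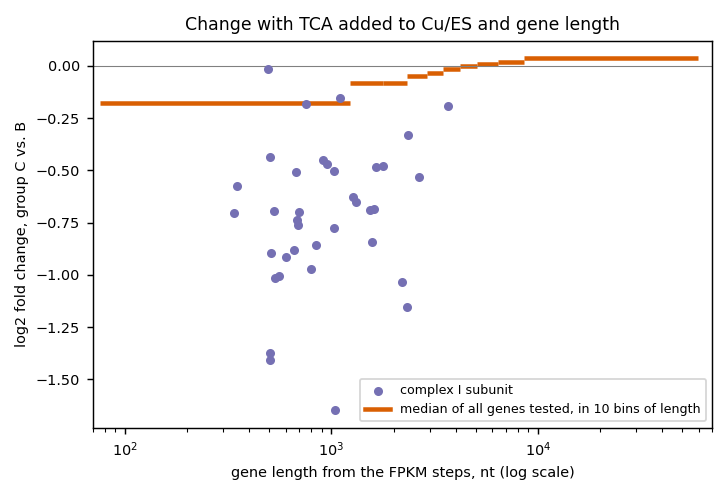
Log2 fold change of group C vs. B on the log2(FPKM + 1) scale against gene length in nt on a log axis. Purple points are the 37 subunits and orange bars the medians of all genes tested in 10 bins of equal size by length, from -0.18 in the shortest to 0.04 in the longest. Of the 25 subunits in the shortest bin, 23 lie below its bar.

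Nuclear genes of respiration are known for promoters that bind the factors NRF1, GABP (an ETS factor) and YY1, so the promoters of the 7 subunits with a log2 fold change below -1 from B to C are shown. Promoter sequences of RefSeq, from 250 bases before to 50 after the start, matched 47 of the 57 genes. They are of build GRCm38.p6, while the deposited values were made on GRCm39, and coordinates below are of GRCm38.p6. Letters in capitals mark matches on either strand to the NRF1 letters, GCGCA and GCGC with any base between, or to the ETS letters CCGGAAG, and each sequence runs 5′ to 3′ on the gene's strand up to the last base before the start. Ndufb4 is shown over 250 bases because it holds 3 NRF1 matches, and the others over 100. Ndufa12, the subunit with the largest fall, Ndufb8 and Ndufab1 hold neither.
Ndufb4, chr16:37654369-37654618, minus strand: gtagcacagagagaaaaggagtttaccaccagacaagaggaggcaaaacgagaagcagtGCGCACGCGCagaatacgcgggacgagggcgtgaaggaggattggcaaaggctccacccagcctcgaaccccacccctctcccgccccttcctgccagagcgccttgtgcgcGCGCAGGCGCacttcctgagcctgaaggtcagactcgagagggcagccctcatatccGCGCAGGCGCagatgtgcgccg
Ndufs6, chr13:73328483-73328582, minus strand: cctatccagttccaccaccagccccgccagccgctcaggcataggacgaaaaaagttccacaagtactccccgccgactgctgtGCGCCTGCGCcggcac
Ndufa5, chr6:24527691-24527790, minus strand: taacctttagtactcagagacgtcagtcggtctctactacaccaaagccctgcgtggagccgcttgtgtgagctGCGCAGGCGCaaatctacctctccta
Ndufb7, chr8:83566658-83566757, plus strand: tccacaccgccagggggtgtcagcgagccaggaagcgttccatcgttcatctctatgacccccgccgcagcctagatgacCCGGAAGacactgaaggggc
Ndufa12, chr10:94198935-94199034, plus strand: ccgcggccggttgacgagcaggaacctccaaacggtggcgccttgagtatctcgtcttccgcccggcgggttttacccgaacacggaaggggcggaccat
Ndufb8, chr19:44555443-44555542, minus strand: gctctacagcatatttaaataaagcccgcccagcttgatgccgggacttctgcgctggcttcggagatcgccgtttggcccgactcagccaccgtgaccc
Ndufab1, chr7:122101849-122101948, minus strand: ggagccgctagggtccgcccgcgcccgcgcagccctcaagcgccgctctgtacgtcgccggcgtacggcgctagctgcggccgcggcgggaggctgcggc

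NRF1 letters were found in 9 of the 47 genes (19.1%), against 12.2% of the promoters of tested genes and 5.19% of all promoters. These were Ndufa5, Ndufa6, Ndufa8, Ndufa11, Ndufb4, Ndufs5, Ndufs6, Ndufaf4 and Ndufaf5. In Ndufb4 the matches began at positions -191, -79 and -22 from the start, in Ndufs6 at -16 and in Ndufa5 at -26, which is the same match as at -190 from a second start listed for this gene. The 9 genes with a match had a median change from B to C of -0.90 and the 37 tested genes without one of -0.51. ETS letters were found in 8 genes (17.0%, against 21.9% of tested genes and 9.93% of all), and the medians with and without were -0.54 and -0.55. In Ndufb7 the match began at -20. These medians mix subunits and assembly factors, whose own medians were -0.69 and -0.10. Subunits were 7 of the 9 genes with NRF1 letters but 4 of the 8 with ETS letters. With ETS letters, subunits changed by -0.47 (Ndufs3) to -1.01 (Ndufb7) and assembly factors by 0.19 (Ndufaf1) to -0.60 (Ndufaf8). A difference by motif within a class was not tested.

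YY1 letters, AAGATGGCG, were found in 7 of the 47 genes (14.9%), against 3.97% of the promoters of tested genes and 1.64% of all. All 7 matches were on the strand of the gene and began 11 to 36 bases after the start, within the first transcribed bases. These windows are shown because of that shared position, with the match in capitals. The medians of the change from B to C were -0.65 with a match and -0.51 without, again over subunits (5 of the 7 with a match) and assembly factors together. The YY1 letters hold an ATG, and whether it is the start codon in these genes was not tested. None of these matches was tested as a binding site.
Ndufs4, chr13:114388045-114388069, minus strand: tgcctacaggAAGATGGCGgcggtc
Ndufs6, chr13:73328433-73328459, minus strand: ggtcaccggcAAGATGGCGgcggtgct
Ndufa9, chr6:126849097-126849125, minus strand: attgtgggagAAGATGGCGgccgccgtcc
Ndufs7, chr10:80249463-80249491, plus strand: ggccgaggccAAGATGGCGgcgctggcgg
Ndufc1, chr3:51408915-51408943, minus strand: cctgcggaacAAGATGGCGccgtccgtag
Ndufaf8, chr11:120098934-120098962, plus strand: ggcagggcccAAGATGGCGgcgccctcga
Tmem126b, chr7:90475960-90475988, minus strand: gtgaggcgctAAGATGGCGgcgtcccagc

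From B to C the median change of the assembly factors was -0.10, against -0.69 for subunits, and 2 of 13 passed lower, Acad9 (-0.69 ± 0.09, limma, adjusted p = 4.01e-05) and Ndufaf5 (-0.38 ± 0.14, adjusted p = 0.0386), against 23.6% of all genes tested. Acad9, an acyl-CoA dehydrogenase that works in the MCIA complex, had 9.73, 10.2 and 9.83 FPKM in A, 2.73, 2.07 and 2.14 in B and 1.17, 0.983 and 0.9995 in C. Foxred1 rose, with 7.38, 6.78 and 7.46 FPKM in A, 3.14, 3.09 and 3.27 in B, 4.602, 5.73 and 5.46 in C and 8.49, 8.41 and 8.64 in D (0.59 ± 0.08 from B to C, adjusted p = 7.85e-05). All C libraries of Foxred1 lay between those of B and A.

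The other 10 tested factors did not pass from B to C, with changes from -0.60 for Ndufaf8 to 0.25 for Ndufaf2. Most of them were near the lower end of the measurement in both groups: Ndufaf3 had 6 to 9 reads in the B libraries and 1 to 11 in the C libraries, and Tmem126b 10 to 32 and 3 to 24, so their change from B to C was measured with low precision. Ndufaf6, below the filter, had a mean of 1.51 FPKM in A and 12.6% and 5.57% of it in B and C. The SD between the C libraries was large for Ndufaf8, which had 4.38, 11.9 and 5.33 FPKM, again with the second library highest.

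**Figure D5:**
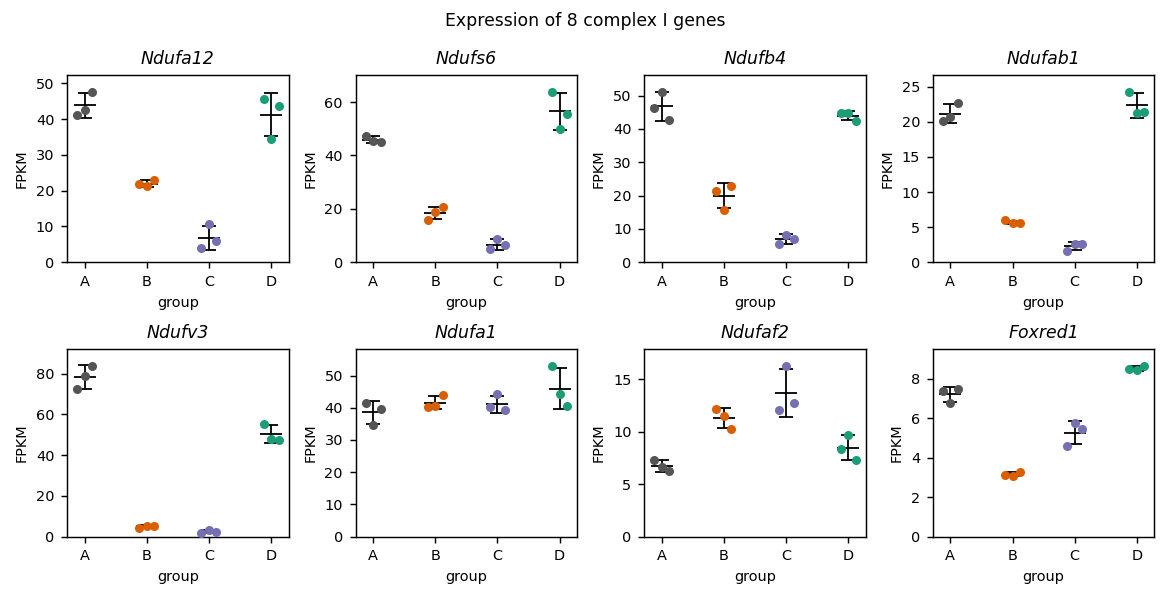
FPKM of 8 genes in the 3 libraries of each group, with the mean and SD drawn in black and axes starting at 0. Ndufa12, Ndufs6, Ndufb4 and Ndufab1 step down from A to B to C as FPKM, Ndufv3 is near 0 in B and C and lower in D than in A, Ndufa1 is level as FPKM, Ndufaf2 is higher in B and C, and Foxred1 in C lies between B and A.

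TCA alone left these genes close to untreated cells. In group D vs. A, 1 of 37 subunits passed lower and 0 higher with limma as with limma-voom, against 11.5% and 10.5% of all genes tested (2 were higher at an unadjusted p under 0.05), and the median subunit changed by 0.02. The subunit was Ndufv3, with 55.3, 48.0 and 47.5 FPKM in D against 72.5, 79.1 and 83.9 in A (-0.63 ± 0.14, limma, adjusted p = 0.00647). Of the assembly factors, Ndufaf4 rose, from 2.55, 2.23 and 2.67 to 4.79, 4.48 and 4.90 FPKM (0.72 ± 0.13, adjusted p = 0.00229), and Ndufaf7 fell, from 11.1, 12.7 and 13.4 to 9.87, 9.09 and 9.87 (-0.33 ± 0.10, adjusted p = 0.0290). Ndufaf7 did not pass without the second or the third A library or without any single D library (limma, adjusted p from 0.0649 to 0.115). The largest of the 51 changes in either direction was 0.72 on the log2 scale, so 0 passed with a change above 1, against 0.151% of genes lower and 0.0659% higher, and for each of these 3 genes the A and D libraries did not overlap.

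The change with TCA was therefore compared directly between cells with and without Cu/ES, as the interaction (C - B) - (D - A). It passed lower for 31 of 37 subunits and higher for 0 with limma, against 19.8% and 17.7% of all genes tested, and limma-voom gave 29 and 0 (0 were higher at an unadjusted p under 0.05). Of these subunits, 11 passed with a difference below -1, against 1.73%, or 7 members without the first C library. The largest differences were those of Ndufs6 (-1.66 ± 0.21, limma, adjusted p = 0.000101), Ndufa12 (-1.55 ± 0.30), Ndufb4 (-1.32 ± 0.20), Ndufb8 (-1.15 ± 0.16), Ndufs5 (-1.14 ± 0.14) and Ndufa8 (-1.12 ± 0.17). Ndufs5 and Ndufa8 are cysteine-rich subunits of the membrane arm that face the intermembrane space. Ndufa8 had 33.9, 41.0 and 35.4 FPKM in B and 16.5, 22.4 and 16.2 in C, but 60.6, 71.4 and 67.1 in A and 77.8, 76.5 and 66.0 in D. Of 13 assembly factors, 3 passed lower (Acad9, Ndufaf4 and Timmdc1) and 1 higher (Foxred1, with a limma adjusted p of 0.0543 and 0.0570 without the first or the third A library), and their median was -0.05. Each of these differences shares its libraries with the simple comparisons above.

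Seen against TCA alone, cells with both agents had 36 of 37 subunits passing lower (group C vs. D, against 71.5% of all genes tested), with a median of -1.64 where the median of all genes was -1.13. The direction of 21 of these 36 held under all 3 scalings. With median-ratio scaling 18 subunits passed lower and 10 higher, and the share of 71.5%, from the FPKM fit, is no background for these counts. Ndufv3 (-3.94 ± 0.14), Ndufb7 (-3.21 ± 0.12), Ndufv2 (-3.15 ± 0.11), Ndufs6 (-2.94 ± 0.15) and Ndufab1 (-2.84 ± 0.11) had the largest falls among subunits (limma, adjusted p from 1.61e-12 to 1.06e-10), and each held under the 3 scalings. Ndufaf2 (0.63 ± 0.12) and Ndufa4 (0.96 ± 0.10) were higher in C than in D.

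Most complex I subunits encoded in the mitochondrial genome were higher with Cu/ES. Of 7 ND genes, 5 passed higher in group B than in A, against 20.1% of all genes. Their median change was 1.23, and 0.89, 2.52 and 0.92 as TPM and with median-ratio and quantile scaling. ND1, which lies in the membrane arm next to the quinone site, had 2072 to 2777 FPKM in A, 7575 to 8712 in B, 8886 to 8940 in C and 2236 to 2615 in D. ND5, at the tip of the membrane arm, had 957.6 to 1169 FPKM in A and 1010 to 1119 in B, with a change of 0.05 that passed lower as TPM (-0.32) and with quantile normalization (-0.85) and higher with median-ratio scaling (1.39). The numbers that passed higher were 5, 7 and 4 of 7 as TPM and with median-ratio and quantile scaling. From B to C the median of the 7 was 0.13 and ND4 alone passed, at 0.44. Libraries were made from polyadenylated RNA, and FPKM of these genes also depends on the total of all other transcripts.

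Nuclear subunits of complexes II to V, 38 genes, were also lower with TCA added: 33 passed lower in C vs. B, beside 23.6% of the 10615 genes, with a median of -0.57 against -0.69 for complex I subunits. By complex the medians were -0.74 for complex II (4 genes), -0.62 for complex III (9), -0.49 for complex IV (10) and -0.45 for ATP synthase (15). These medians were negative under each scaling, and the differences between complexes were not tested. With Cu/ES alone the medians were -1.57, -0.82, 0.53 and -0.12 in the same order, beside -0.84 for complex I, and with median-ratio scaling -0.26, 0.50, 1.87 and 1.20, beside 0.48. Of 12 regulators of respiratory genes, 10 were tested, and from B to C Yy1 (0.36) and Creb1 (0.29) passed higher while Gabpb1 (-0.33), a subunit of GABP, and Pprc1 (-0.44), a coactivator of NRF1, passed lower, that is 2 and 2 of 10, near the 20.4% higher and 23.6% lower of all genes tested. Nrf1 had 3.15 to 3.60 FPKM in A, 0.818 to 1.03 in B and 0.818 to 1.08 in C.

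The remaining names were close to the limit of detection. Ndufa4l2, a hypoxia-induced relative of Ndufa4, had 45 to 54 reads per library in group A (1.02, 1.20 and 1.20 FPKM) and 0 in all B and C libraries. A count of 0 allows up to 3 reads per library, so its level was at least 13.5-fold lower in B and at least 12.8-fold lower in C than in A, by counting error only. In D it had 0.480, 0.638 and 0.812 FPKM. Ndufb4b, Ndufb4c, Ndufb11b and Ndufs6b stayed at or under 1.80 FPKM in every library. They are close copies of Ndufb4, Ndufb11 and Ndufs6, and reads may have been split between copies, so no comparison is drawn from them.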

How the data were processed

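The 12 RNA-seq libraries of AML12 cells, 3 in each of 4 groups assigned from the sample labels, were analysed. The authors deposited FPKM values for 24824 genes by symbol. Their processing notes name fastp, HISAT2, HTSeq and GRCm39, while versions and the annotation are not given in the sources used here, nor is the strand setting of the counting. Every column was used.

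Genes with a mean of at least 1 FPKM (10615) were fitted as log2(FPKM + 1) with limma 3.58.1 in R 4.3.3, 4 groups in 1 fit with 8 residual degrees of freedom, empirical Bayes with a trend, two-sided p and Benjamini-Hochberg adjustment over all genes tested. Contrasts were B vs. A, C vs. B, D vs. A, C vs. D and the interaction. The steps between FPKM values gave back whole reads for all 22212 genes above 0 in at least 2 libraries (tolerance 0.03 of a read), giving totals of 29112342 to 39772346 and gene lengths. Reads carry no molecular identifiers, so floors cover counting error only. Alternatives were another pseudocount (0.1), no filter or one of 5 FPKM, TPM, median-ratio and quantile scaling, no trend, only the groups compared, limma-voom on recovered reads, a replicate block, and each library left out; the split by gene length was added after seeing the data.

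The members and gene lists were chosen with earlier results of these data known. In each comparison the genes named were the 7 core subunits, all assembly factors, Ndufab1, Ndufa4 and Ndufa4l2, and the 6 largest rises and falls that passed without overlap; other genes were named after their values were seen. Of these, 1 gene is counted in the totals but not reported here. Pandas 2.3.3, numpy 2.4.6 and matplotlib 3.10.9 under Python 3.11.15 made tables and plots.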

Additional observations from a re-analysis of the deposited data

Results flagged for a closer look

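For 15 genes named by the rule, the change with TCA differed between cells with and without Cu/ES by the interaction term of limma (Benjamini-Hochberg adjusted p under 0.05). Ndufs6, Ndufa12, Ndufb4, Ndufb8, Ndufs5 and Ndufa8 were named here as the largest falls that passed. Their passing was therefore fixed by the rule, and the count of 15 is no result by itself. Of all 51 members tested, 34 passed lower and 1 higher, against 19.8% and 17.7% of all genes tested. The values are the log2 change from B to C minus that from A to D. In the N module they were -1.66 for Ndufs6, -1.55 for Ndufa12, -0.788 for Ndufv1 and -0.421 for Ndufv2. In the Q module they were -0.859 for Ndufs8 and -0.414 for Ndufs3. In the membrane arm they were -1.32 for Ndufb4, -1.15 for Ndufb8, -1.14 for Ndufs5 and -1.12 for Ndufa8, and the acyl carrier protein Ndufab1 had -1.11. Among assembly factors they were -0.59 for Acad9, -0.573 for Ndufaf4, -0.439 for Timmdc1 and 0.37 for Foxred1. Ndufaf4 rose in D vs. A (0.72) and did not pass in C vs. B (0.14), whereas Foxred1 rose in C vs. B (0.59) and had a change of 0.21 in D vs. A.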

How the results depend on the processing

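Repeats for single genes were counted only for those named by the rule in each comparison. Of these 2046 repeats, 1939 kept direction and side of the threshold, 75 lost and 19 gained the call, and 13 reversed. All 13 were under median-ratio or quantile scaling. In B vs. A the reversed changes were 0.13 and 0.40 (median-ratio and quantile) for Foxred1, 0.38 and 0.060 for Ndufaf8, 0.84 and 0.025 for Ndufs8, 0.26 for Ndufaf4 and 0.22 for Ndufaf5 with quantile, and 0.24 for Ndufs1 with median-ratio scaling. In C vs. D they were 0.60 and 0.64 for Foxred1, and 0.068 for Ndufs1 and 0.015 for Ndufs8 with median-ratio scaling. Over all genes that passed, reversals were more frequent. In B vs. A, 22 of 32 subunits and 4 of 13 assembly factors did not keep their direction under all 3 scalings. In C vs. D, 15 of 36 subunits and 1 of 13 assembly factors did not. Among all 51 members tested, 43 passed lower, 3 higher and 27 with an absolute change above 1 in B vs. A. Of all genes tested as FPKM, 72.0% passed lower and 20.1% higher, and 53.0% passed lower with a change above 1. With median-ratio scaling 15 passed lower and 23 higher, and with quantile normalization 8 higher and 13 with a change above 1. In C vs. B, 36 passed lower, 1 higher and 7 with a change above 1. The shares of all genes were 23.6% lower, 20.4% higher and 1.16% lower with a change above 1. TPM gave 2 higher, quantile normalization 3 above 1, and leaving out single libraries 4 to 12 above 1. In C vs. D, 48 passed lower, 2 higher and 39 above 1, against 28, 13 and 18 with median-ratio scaling and 4 higher with quantile normalization. As FPKM, 71.5% of all genes passed lower in C vs. D, and the share above 1 is not given here. In the interaction, 34 passed lower, 1 higher and 11 above 1, against 19.8% lower, 17.7% higher and 1.73% lower with a difference above 1 among all genes. Without a filter 2 passed higher, with quantile normalization 0 higher and 5 above 1, and without single libraries 0 to 1 higher (0 without the first or the third A library) and 7 to 15 above 1 (7 without the first C library). In D vs. A, 2 passed lower and 1 higher, 3 in all, against 11.5% and 10.5% of all genes tested. Lower calls were 1 with a pseudocount of 0.1, TPM or median-ratio scaling, and higher calls 0 with a filter of 5 FPKM. Quantile normalization gave 6 calls, 4 higher, limma-voom 5, 3 higher, only the groups compared 6, 3 higher, and leaving out single libraries 1 to 2 lower and 1 to 2 higher (2 without the second D library). Libraries carry replicate numbers, but only 11 of 18 pairs of the same number deviated together with r above 0.1 (mean 0.125), so they were not taken as pairs, although 11 of 12 libraries lay closer on average to their own number and the mean r of the other pairs was -0.059. Deviations sum to 0 within a group, so the mean of the other pairs largely follows from that of the same-number pairs. With the replicate number as a block, 2 passed higher in D vs. A, and other counts of calls stayed within 1.5 times. The causes of these shifts were not tested. Depth limits assembly factors with few reads in B and C, 3 libraries a group limit all tests, and FPKM gives levels relative to the library total.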
